A study of Mus musculus with 6 samples.

Results

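The non-collagen extracellular matrix genes were examined in the epidermis of newborn mice, 39 genes of the 54532 in the deposited count table. They were chosen by gene symbol and comprise 12 matricellular and adhesive glycoprotein genes, 8 proteoglycan genes, 11 elastic fibre and microfibril genes and 8 basement membrane genes. All 39 symbols matched 1 row each. The tissue came from newborn mice labelled Paxbp1 knockout (3 libraries) and from newborn mice labelled wild type (3 libraries), which share the tissue, the stage and the overnight Dispase II digestion after which the dermis was peeled away. The study asked how Paxbp1, a gene whose protein binds Pax transcription factors, acts in epidermal homeostasis. The labels name no Cre driver, promoter, deleted exon, strain or sex, and do not say whether a library came from 1 animal or several, so the p-values below speak of the spread among libraries, which may be technical.

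Outside the collagens, the matrix of skin is built by secreted glycoproteins, proteoglycans and elastic fibres, most of which dermal fibroblasts make. Matricellular proteins such as tenascins, thrombospondins and periostin sit in the matrix and change how cells adhere and signal, and several are known to be raised in wounds. Keratinocytes secrete laminins, perlecan and other proteins of the basement membrane that joins epidermis and dermis, and fibroblasts and vessel walls make laminins and nidogens of their own.

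Totals ran from 16315317 to 17816327 counts per library, and the 39 genes took 0.837% to 1.52% of them in the knockout and 0.257% to 0.413% in the wild type. Over all 16471 genes tested with edgeR's quasi-likelihood test, 28.7% were higher and 25.1% lower in the knockout at an adjusted p under 0.05. Paxbp1 itself had 2370, 1127 and 1125 counts in the knockout libraries, against 2007, 1159 and 1467 in the wild type libraries (log2 fold change 0.10 ± 0.29, edgeR adjusted p = 0.783). These counts overlapped between the groups, so the genotype could not be read from them, and every direction given is that of the libraries labelled knockout. Markers of other cells moved in the same libraries. All 10 fibroblast markers were higher, with log2 fold changes between 3.46 and 8.36. Their summed FPKM was 683 to 1583 in the knockout and 13.9 to 21.3 in the wild type. FPKM are fragments per kilobase of gene, scaled by the authors with 1 factor per library. All 8 macrophage markers were higher too, at a summed FPKM of 2704 to 5203 in the knockout and 98.7 to 101.1 in the wild type. The 10 keratinocyte markers were all lower, at 1905 to 4983 summed FPKM in the knockout and 32348 to 56873 in the wild type. Of 8 endothelial markers 5 were tested and 4 were higher. The other tested marker, Egfl7, had 42, 16 and 18 counts in the knockout libraries, against 59, 46 and 68 in the wild type libraries. Egfl7 was not called (log2 fold change -1.08 ± 0.44, edgeR adjusted p = 0.0605). Of those not tested, Emcn had 3, 0 and 2 counts in the knockout libraries and 0 in every wild type library. Tek and Cldn5, also not tested, overlapped between the groups. All 5 mural cell markers tested were higher. Among markers of rarer cells, 2 of 6 adipocyte, 4 of 6 skeletal muscle and 5 of 8 neutrophil markers were tested, and all those tested were higher. Several markers in these and the earlier lists reached the count filter of the test in the knockout libraries only. Examples are Retnlg (0 counts in every wild type library), Cxcr2 (4, 0 and 2), Myh8 (1, 0 and 0) and Cd163 (1, 0 and 0). For these a difference was a condition of being tested. Melanocyte markers (2 higher, 3 lower), Schwann cell markers (3 higher, 1 lower) and mast cell markers (3 higher, 2 lower) divided. The part of these cells in the results on matrix genes was not tested, and in bulk tissue fewer cells of a type and less RNA per cell cannot be told apart.

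Promoter sequences of 4 members are shown because these genes carry the main contrasts of the results, Tnc and Ecm1 among the genes that rose and Postn and Lama5 among those that fell. Each run holds the 250 bases before the annotated start, 5′ to 3′ on the gene's strand, from RefSeq (GRCm38.p6). In the GENCODE M21 annotation none of the 4 windows overlaps an exon, and that of Tnc lies within an intron of the plus-strand gene 8030451A03Rik. Tnc and Postn have 2 listed starts each, of which 1 is shown. Capitals mark 3 motifs searched on both strands. They are the AP-1 motif TGANTCA, the TATA box as TATAAA, and the SP1 motif GGGCGG.
Tnc, chr4:64047016-64047265, minus strand: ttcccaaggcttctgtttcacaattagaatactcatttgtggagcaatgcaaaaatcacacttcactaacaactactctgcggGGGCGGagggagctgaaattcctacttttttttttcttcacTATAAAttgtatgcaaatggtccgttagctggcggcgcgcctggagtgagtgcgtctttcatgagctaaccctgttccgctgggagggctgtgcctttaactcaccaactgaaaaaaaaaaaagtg
Ecm1, chr3:95739570-95739819, minus strand: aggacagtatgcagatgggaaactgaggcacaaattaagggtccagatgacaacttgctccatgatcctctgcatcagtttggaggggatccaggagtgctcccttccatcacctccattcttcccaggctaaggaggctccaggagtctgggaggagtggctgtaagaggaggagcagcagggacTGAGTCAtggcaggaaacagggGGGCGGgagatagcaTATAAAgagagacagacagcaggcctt
Postn, chr3:54360857-54361106, plus strand: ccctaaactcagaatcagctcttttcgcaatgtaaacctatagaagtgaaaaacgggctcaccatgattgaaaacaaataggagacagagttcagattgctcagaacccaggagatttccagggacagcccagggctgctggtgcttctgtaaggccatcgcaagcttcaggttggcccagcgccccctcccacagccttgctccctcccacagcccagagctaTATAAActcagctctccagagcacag
Lama5, chr2:180225860-180226109, minus strand: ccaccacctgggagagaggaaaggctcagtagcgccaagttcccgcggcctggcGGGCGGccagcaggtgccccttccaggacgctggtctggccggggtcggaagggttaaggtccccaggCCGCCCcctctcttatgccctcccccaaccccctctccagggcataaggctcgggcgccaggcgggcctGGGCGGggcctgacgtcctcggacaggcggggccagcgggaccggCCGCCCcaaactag
Of the 39 members, 26 had a promoter in this table. An AP-1 motif was found for 2 of the 26, Ecm1 and Tnxb (7.69%), beside 7.82% of all 27025 genes with a promoter in the table. TATAAA was found for 6 members (23.1%, beside 14.3% of all genes) and GGGCGG for 15 members (57.7%, beside 35.4%). TATAAA began 26 bases before the start in Postn and 27 bases before it in Ecm1. In the other members with a match it lay farther off, at 126 bases in the Tnc run shown and in Thbs2. The nearest matches in Aspn and Ogn lay at 178 and 227 bases. Lama5 held 4 matches to GGGCGG. The motifs GGAATG (TEAD) and GCCNNNGGC (AP-2) were found for 3 and 6 of the 26 members, beside 14.4% and 15.4% of all genes. GGGCGG and GCCNNNGGC can overlap each other on a sequence, and a match is a description only.

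Most of the 39 genes were higher in the knockout libraries. Of the 38 tested, 27 were higher and 5 lower (edgeR adjusted p under 0.05), where all genes gave 28.7% and 25.1%. The median log2 fold change of the 38 was 2.75, beside -0.029 over all genes tested. Rises of at least 4-fold numbered 23, beside 15.3% of all genes. Every knockout library lay above every wild type library for 30 of the 39 and below for 5, where this held for 31.9% and 30.4% of all genes tested. Mfap5, which was not tested, is among the 30, while these shares cover tested genes only. The count filter was reached in both groups by 30 of the 39, and among these 20 were higher, 5 lower and 5 not called. Another 7 (Sparcl1, Dpt, Lum, Prelp, Aspn, Fbln5 and Mfap4) reached it in the knockout libraries only, so a difference was a condition of their being tested. Ogn and Mfap5 reached it in neither group alone, and Mfap5 was not tested.

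**Figure D1:**
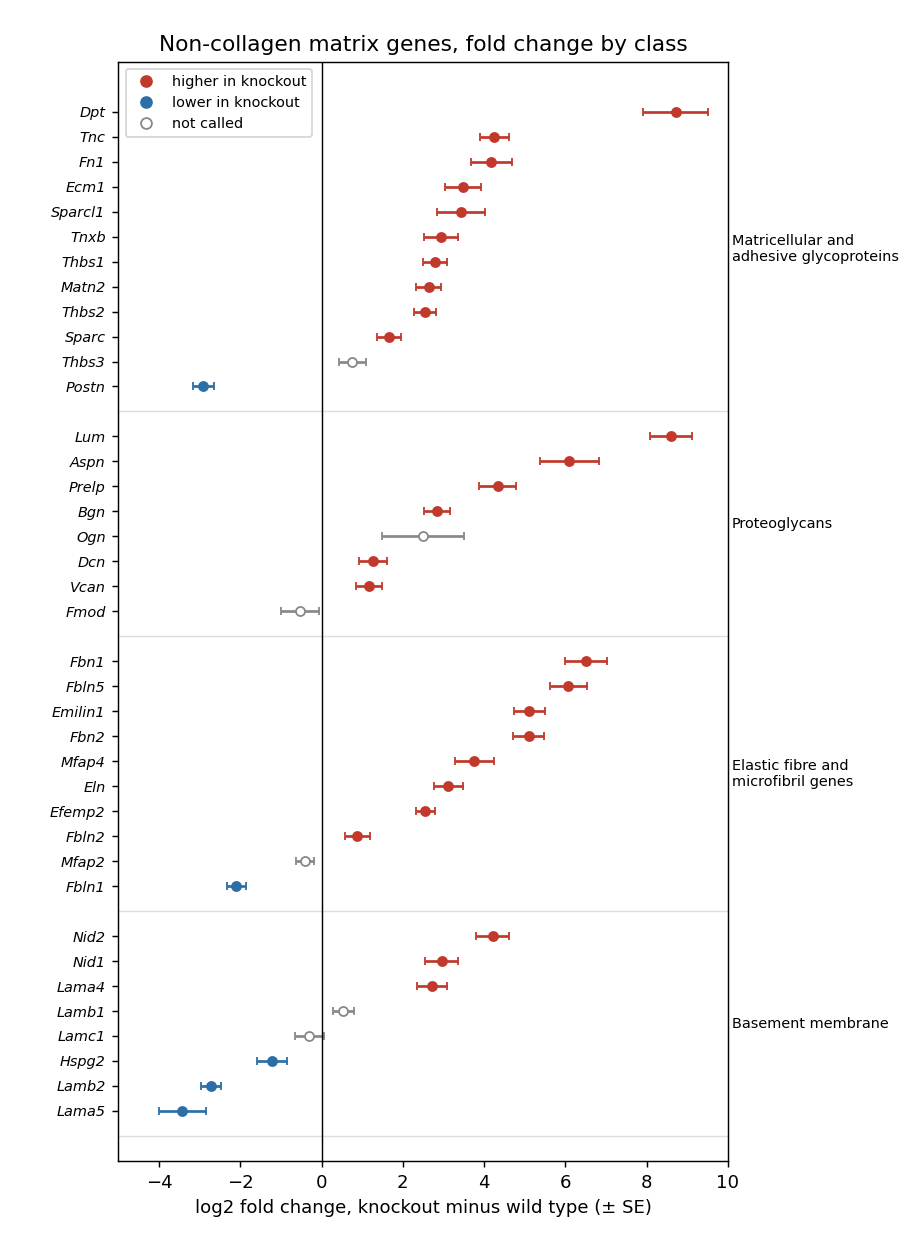
Log2 fold change of the 38 tested matrix genes, knockout minus wild type, as points with SE bars, by class; filled points were called at an edgeR adjusted p under 0.05 and open points were not. Points right of 0 predominate in the upper 3 classes, and basement membrane genes spread to both sides, from -3.43 for Lama5 to 4.21 for Nid2.

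The order of the levels differed between the groups. Per length, the highest members in the knockout were Ecm1 (580 ± 94.9 FPKM), Fn1 (396 ± 234 FPKM), Tnc (209 ± 81.7 FPKM), Sparc (188 ± 56.0 FPKM) and Thbs1 (116 ± 40.6 FPKM; SD, n = 3 each). In the wild type they were Postn (60.9 ± 1.46 FPKM), Sparc (58.9 ± 8.56 FPKM), Ecm1 (51.0 ± 26.0 FPKM), Fbln1 (44.7 ± 1.28 FPKM) and Lama5 (40.1 ± 15.7 FPKM; SD, n = 3 each). In each of these orders the libraries of neighbouring genes overlapped. Postn was number 21 of the 39 in the knockout, Fbln1 number 17 and Lama5 number 31. Dpt and Lum were numbers 7 and 8 in the knockout, against 33 and 32 in the wild type.

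**Figure D2:**
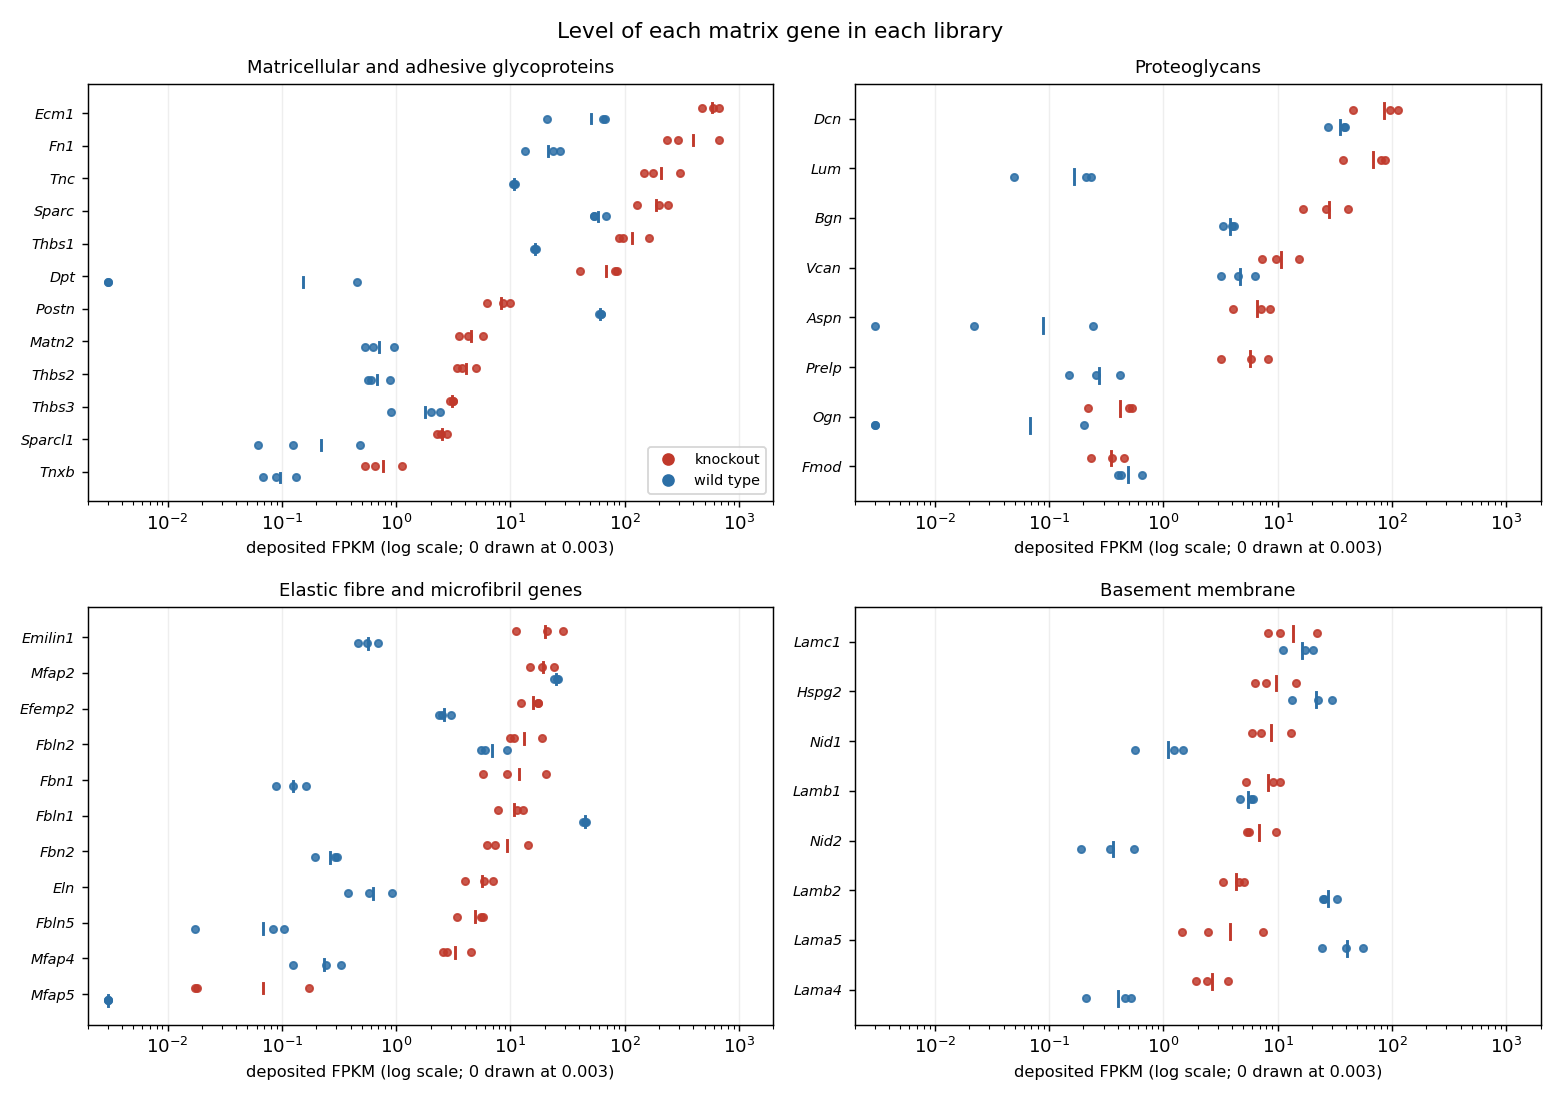
Deposited FPKM of each of the 39 genes in each library on a log axis, a panel per class, with knockout points above wild type points and a short line at each mean; values of 0 are drawn at 0.003. Postn, Fbln1, Lama5 and Lamb2 stand out with wild type points to the right of the knockout points, and Mfap2, Fmod, Lamb1 and Lamc1 lie close in the 2 groups.

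Among the matricellular and adhesive glycoprotein genes 10 of 12 were higher in the knockout and 1, Postn, was lower (edgeR adjusted p under 0.05). Their summed level was 1138, 1466 and 2141 FPKM in the knockout libraries, against 240, 224 and 205 FPKM in the wild type libraries. The median log2 fold change of the class was 2.87, and 9 rises were at least 4-fold, beside 15.3% of all genes tested. The shares of all genes called higher and lower were 28.7% and 25.1%. Dpt and Sparcl1, both higher, reached the count filter in the knockout libraries only.

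Tnc encodes tenascin-C, a matricellular protein that is sparse in resting skin and known from wound edges. It was at 1168, 1385 and 2337 CPM (library-scaled counts with TMM factors) in the knockout libraries, against 85.2, 84.5 and 86.9 CPM in the wild type libraries. The lowest knockout library was thus far above a wild type group with little spread, and the fold was 19.1 (95% interval 11.0 to 33.0, edgeR adjusted p = 3.21e-06). Fibronectin, the product of Fn1, is a cell-adhesive glycoprotein of wound matrix and plasma. Fn1 had 2761, 3442 and 7728 CPM in the knockout libraries, against 331, 158 and 282 CPM in the wild type libraries (log2 fold change 4.18 ± 0.51, edgeR adjusted p = 4.82e-05). Knockout replicate 3 was the highest library for both genes. Macrophages are also known to express Fn1. Macrophage and fibroblast markers were all higher, and the part of either cell type in the rise of Fn1 was not tested.

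Thrombospondins are multimeric glycoproteins that bind cells, calcium and growth factors, and the thrombospondin encoded by Thbs1 is known to activate latent TGF-beta. Thbs1 was at 547, 590 and 984 CPM in the knockout libraries, against 104, 98.2 and 105 CPM in the wild type libraries (log2 fold change 2.79 ± 0.30, edgeR adjusted p = 1.97e-05). Its relative Thbs2 stood at 24.1, 26.9 and 34.7 CPM in the knockout libraries, against 4.37, 4.03 and 6.31 CPM in the wild type libraries (log2 fold change 2.54 ± 0.27, edgeR adjusted p = 1.85e-05). The 2 groups did not overlap for either gene. The FPKM ratio of Thbs2 to Thbs1 was 0.0382, 0.0395 and 0.0306 in the knockout libraries and 0.0364, 0.0356 and 0.0523 in the wild type libraries, which overlapped (two-sided exact permutation p = 0.60). Thbs3 had 15.3, 14.3 and 15.1 CPM in the knockout libraries, against 12.1, 9.90 and 4.46 CPM in the wild type libraries. The knockout libraries were the higher ones, but the gene was not called (log2 fold change 0.76 ± 0.34, edgeR adjusted p = 0.0782). Thbs3 was called with the replicate block (log2 fold change 0.85, edgeR adjusted p = 0.0343), with limma-voom (0.0433), with no filter (0.0450) and without wild type replicate 1 (0.0382), and 6.59% of its exon bases are shared with Mtx1 on the other strand.

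Ecm1 encodes a secreted glycoprotein of skin that is mutated in the human disease lipoid proteinosis. The gene (ENSMUSG00000028108) had 1219, 1512 and 1674 CPM in the knockout libraries, against 169, 173 and 54.1 CPM in the wild type libraries, with wild type replicate 3 the lowest (log2 fold change 3.48 ± 0.45, edgeR adjusted p = 7.26e-05). Dpt encodes dermatopontin, a small dermal protein that binds decorin and collagen. Its counts were 1241, 2285 and 2259 in the knockout libraries, against 15, 0 and 0 in the wild type libraries. All wild type counts thus came from replicate 1, and the fitted log2 fold change was 8.71 ± 0.80 (edgeR adjusted p = 6.07e-06). Without that library Dpt was at least 1381-fold higher, taking 3 counts over the wild type group as the floor.

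Postn went the other way. Periostin, its product, is a matricellular protein that binds collagen and integrins and is made by fibroblasts and by cells around hair follicles. Postn (ENSMUSG00000027750) was at 55.3, 87.8 and 74.1 CPM in the knockout libraries, against 563, 522 and 546 CPM in the wild type libraries. The groups lay far apart, and the gene fell by 2.91 ± 0.26 on the log2 scale (edgeR adjusted p = 5.73e-06). Of the remaining members, Sparcl1 (3.43 ± 0.59), Tnxb (2.95 ± 0.41), Matn2 (2.63 ± 0.31) and the collagen-binding Sparc (1.65 ± 0.29) rose on the log2 scale, at edgeR adjusted p values between 3.4e-05 and 0.000714. Tnxb and Sparcl1 remained low, at 0.768 ± 0.307 and 2.51 ± 0.264 FPKM in the knockout, against 0.0967 ± 0.0330 and 0.222 ± 0.226 FPKM in the wild type (SD, n = 3 each). The log2 fold change of Sparcl1 was 4.68 without wild type replicate 1, which held 27 of its 37 wild type counts.

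The proteoglycan genes were higher for 6 of 8 members, lower for 0 and not called for 2 (edgeR adjusted p under 0.05; at an unadjusted p under 0.05 and with DESeq2 the lower members also numbered 0). Most of them encode small leucine-rich proteoglycans, which coat collagen fibrils and set their thickness. Summed over the class, the level was 118, 251 and 250 FPKM in the knockout libraries, against 39.6, 45.3 and 49.0 FPKM in the wild type libraries. Knockout replicate 1 was the lowest knockout library here. The background of 16471 genes held 28.7% called higher and 25.1% called lower. Lum, Prelp and Aspn, all higher, reached the count filter in the knockout libraries only, and Ogn reached it in neither group alone. For Lum, Prelp and Aspn a difference was thus a condition of being tested, and the class counts are a description.

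Decorin, the product of Dcn, is the main small proteoglycan of dermal collagen. Dcn was the highest member of the class in both groups, at 270, 672 and 559 CPM in the knockout libraries, against 168, 225 and 234 CPM in the wild type libraries (log2 fold change 1.26 ± 0.34, edgeR adjusted p = 0.00902). Its rise was modest, and wild type epidermis already held 35.0 ± 6.40 FPKM of it (SD, n = 3). Lum encodes lumican, which shares with decorin the binding of fibrillar collagen. Lum had 92.8, 217 and 197 CPM in the knockout libraries, against 0.600, 0.122 and 0.531 CPM in the wild type libraries. These wild type values rest on 11, 2 and 10 counts, and the fitted fold was 389 (95% interval 175 to 865, edgeR adjusted p = 3.94e-07).

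Bgn, which encodes biglycan, the closest relative of decorin, was at 102, 165 and 251 CPM in the knockout libraries, against 25.6, 20.7 and 26.1 CPM in the wild type libraries (log2 fold change 2.84 ± 0.32, edgeR adjusted p = 2.79e-05). The FPKM ratio of Bgn to Dcn was 0.362, 0.235 and 0.430 in the knockout libraries, against 0.146, 0.0878 and 0.107 in the wild type libraries. Ratios did not overlap between the groups, and the two-sided exact permutation p of 0.10 is the smallest that 3 against 3 libraries can give (0.12 adjusted over 6 ratios). With same-numbered libraries taken as pairs, the smallest possible two-sided exact p is 0.25, and this and each ratio below whose groups do not overlap gave that value. Prelp, whose product anchors collagen to perlecan, had 11.7, 21.6 and 29.7 CPM in the knockout libraries, against 1.58, 0.550 and 0.955 CPM in the wild type libraries (log2 fold change 4.33 ± 0.46, edgeR adjusted p = 1.73e-05). Aspn, which encodes asporin, had 172, 314 and 272 counts in the knockout libraries, against 11, 0 and 1 in the wild type libraries (log2 fold change 6.09 ± 0.73, edgeR adjusted p = 4.01e-05, and 8.77 without wild type replicate 1). Versican, the large hyaluronan-binding proteoglycan encoded by Vcan, rose less (1.17 ± 0.33 on the log2 scale, edgeR adjusted p = 0.0108).

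Fmod and Ogn were close to the limit of detection. Fmod, for fibromodulin, was at 1.19, 0.784 and 1.49 CPM in the knockout libraries, against 1.47, 1.34 and 2.18 CPM in the wild type libraries (log2 fold change -0.53 ± 0.48, edgeR adjusted p = 0.375). Those groups overlapped, and the fold had a 95% interval of 0.335 to 1.44. Ogn, for osteoglycin, had 23, 21 and 9 counts in the knockout libraries, against 10, 0 and 0 in the wild type libraries (log2 fold change 2.50 ± 1.02, edgeR adjusted p = 0.0590). Ogn was called with the replicate block (log2 fold change 2.95, edgeR adjusted p = 0.0340), with DESeq2 (adjusted p = 0.0462), limma-voom (0.00907) and limma-trend (0.018 and 0.0121), and in edgeR with no filter (0.0136). Without wild type replicate 1, the one wild type library with counts, it was at least 12.7-fold higher with the same floor.

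In 3 cases 2 of these genes are neighbours on a chromosome (mm10), and the partners differed in level and in fold. On chromosome 10, Dcn (97479609 to 97518143) and Lum (97565128 to 97572703) lie 47.0 kb apart on the plus strand, with log2 fold changes of 1.26 and 8.61. Aspn (49544443 to 49567565) and Ogn (49608046 to 49624501) lie 40.5 kb apart on the plus strand of chromosome 13, with Omd between them, at 6.09 and 2.50. Omd, for osteomodulin, had 12, 9 and 0 counts in the knockout libraries, against 7, 6 and 4 in the wild type libraries, and was not tested. On chromosome 1, Prelp (133910304 to 133921414, minus strand) and Fmod (134037254 to 134048277, plus strand) lie 116 kb apart, at 4.33 and -0.53. The differences between partners were not tested.

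**Figure D3:**
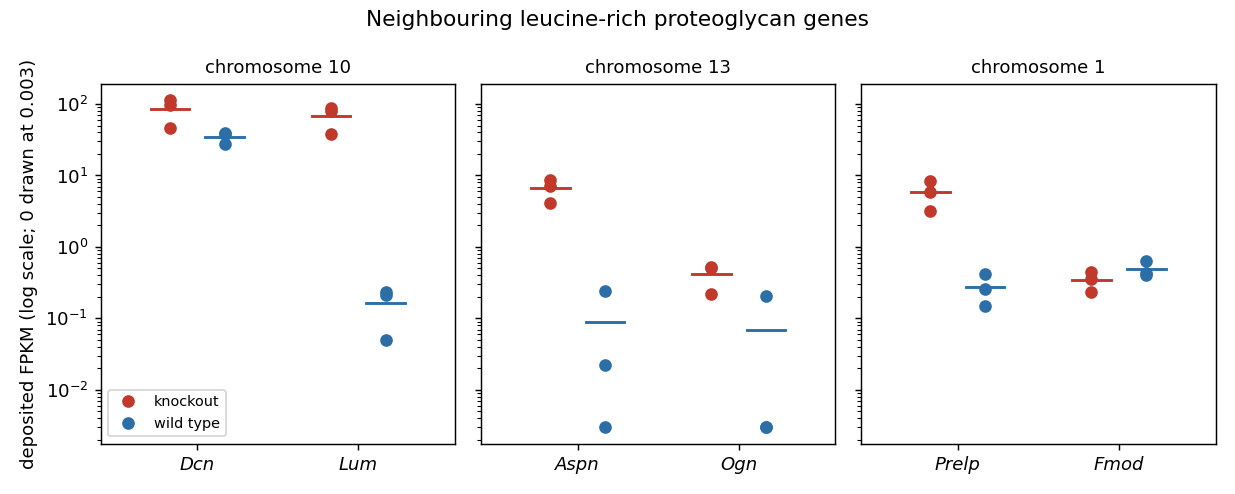
Deposited FPKM on a log axis of 3 pairs of neighbouring leucine-rich proteoglycan genes, knockout points left of wild type points, with a line at each mean and values of 0 drawn at 0.003. Dcn is high in both groups while its neighbour Lum is near 0.166 FPKM in the wild type, and Fmod overlaps between the groups while its neighbour Prelp does not.

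Elastic fibre and microfibril genes were higher for 8 of the 10 tested and lower for 1, Fbln1 (edgeR adjusted p under 0.05). All genes tested gave 28.7% higher and 25.1% lower. Fbln5 and Mfap4, both higher, reached the count filter in the knockout libraries only. Elastic fibres consist of elastin on a scaffold of fibrillin microfibrils, with fibulins, emilins and microfibril-associated proteins binding to both. Summed over the 11 genes, the level was 78.2, 117 and 147 FPKM in the knockout libraries, against 81.6, 80.7 and 82.0 FPKM in the wild type libraries. These sums overlapped between the groups although most members rose, and Fbln1 and Mfap2 held most of the wild type level.

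Both fibrillin genes rose. Fbn1 was at 70.5, 115 and 245 CPM in the knockout libraries, against 2.07, 1.10 and 1.54 CPM in the wild type libraries (log2 fold change 6.50 ± 0.51, edgeR adjusted p = 2.08e-06, and 5.88 without knockout replicate 3). Fbn2, the fibrillin gene known mainly from development, was at 65.6, 78.0 and 148 CPM in the knockout libraries, against 3.16, 2.08 and 3.24 CPM in the wild type libraries (log2 fold change 5.10 ± 0.38, edgeR adjusted p = 1.28e-06). In the knockout libraries the FPKM ratio of Fbn2 to Fbn1 was 1.08, 0.783 and 0.699, against 1.77, 2.19 and 2.43 in the wild type libraries. This ratio did not overlap between the groups (two-sided exact permutation p = 0.10, the smallest possible, 0.12 adjusted over 6 ratios).

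Emilin1, for a glycoprotein at the border of elastin and microfibrils, was the highest member of the class in the knockout. It had 55.9, 105 and 141 CPM in the knockout libraries, against 2.84, 2.32 and 3.50 CPM in the wild type libraries (log2 fold change 5.11 ± 0.38, edgeR adjusted p = 1.27e-06). Fbln5, whose product tethers elastin to microfibrils and cells, had 422, 615 and 611 counts in the knockout libraries, against 11, 2 and 14 in the wild type libraries (log2 fold change 6.07 ± 0.46, edgeR adjusted p = 1.60e-06). Elastin itself (Eln, 3.12 ± 0.35), Mfap4 (3.76 ± 0.48) and Efemp2, which encodes an elastin assembly fibulin (2.55 ± 0.24), rose on the log2 scale, at edgeR adjusted p values of 2.75e-05, 6.23e-05 and 7.31e-06. The fibulin gene Fbln2 passed the test narrowly (0.88 ± 0.30, edgeR adjusted p = 0.0284), and leaving out knockout replicate 3, wild type replicate 2 or wild type replicate 3 ended the call (adjusted p = 0.122, 0.103 and 0.0959).

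Fbln1 fell. This gene encodes the fibulin that binds fibronectin, laminin and nidogen, and it was at 34.5, 56.5 and 49.8 CPM in the knockout libraries, against 198, 204 and 199 CPM in the wild type libraries. The wild type libraries lay within 6 CPM of each other, and the log2 fold change was -2.09 ± 0.24 (edgeR adjusted p = 2.66e-05). Mfap2, for a small microfibril glycoprotein, had 18.3, 29.5 and 22.9 CPM in the knockout libraries, against 30.3, 31.1 and 32.5 CPM in the wild type libraries. The knockout libraries were all lower, but the gene was not called (log2 fold change -0.41 ± 0.23, edgeR adjusted p = 0.150). Library-size and upper-quartile scaling, which moved the median of all genes to -0.18 and -0.22, called it lower (adjusted p = 0.0350 and 0.0367). Mfap5 had 11, 1 and 1 counts in the knockout libraries and 0 in every wild type library, where 3 counts would be 0.159 to 0.183 CPM. Of the 6 adipocyte markers, Adipoq (36, 0 and 0 counts), Plin1 (54, 0 and 0) and Cidec (41, 2 and 0) also had most of their knockout counts in replicate 1. Fabp4 (8070, 6574 and 2781) and Retn (41, 47 and 29) had counts in every knockout library, and Lep had 0 throughout. The part of such cells in the Mfap5 counts was not tested.

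Of the 8 basement membrane genes 3 were higher, 3 lower and 2 not called (edgeR adjusted p under 0.05). These counts lie near the shares over all genes tested, 28.7% higher and 25.1% lower, and are a description of the 8 genes. Their summed level was 49.5, 43.5 and 81.1 FPKM in the knockout libraries, against 147, 79.6 and 114 FPKM in the wild type libraries. As a share of the summed FPKM of the 39 genes, the class held 3.00 ± 0.636% in the knockout and 24.3 ± 5.30% in the wild type, while the matricellular class held 80.7 ± 2.28% and 48.3 ± 3.40% (SD, n = 3 each).

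**Figure D4:**
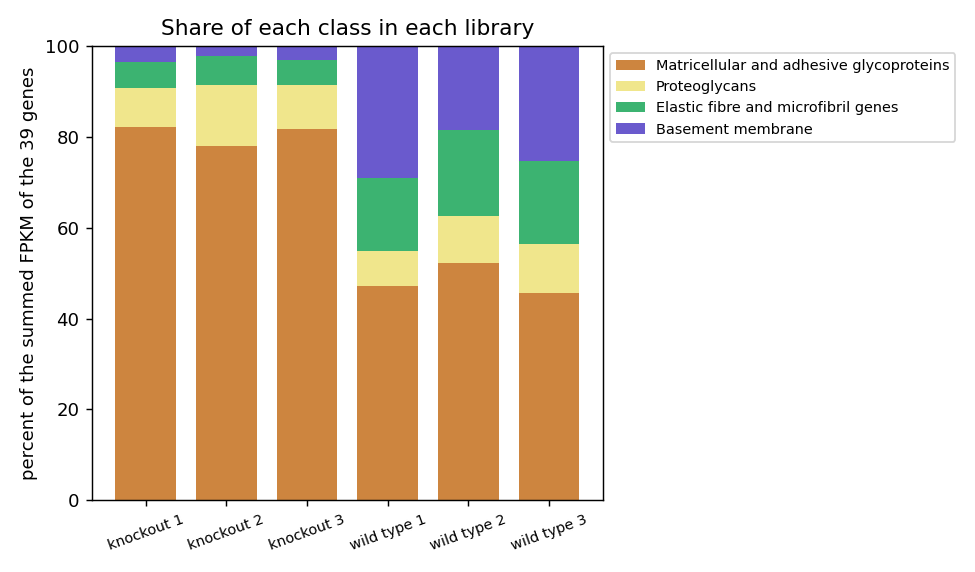
Share of each of the 4 classes in the summed FPKM of the 39 matrix genes, 1 stacked bar per library, in percent. The basement membrane share is 2.32% to 3.58% in the knockout libraries and 18.5% to 29.0% in the wild type libraries.

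Lama5 encodes the alpha chain of the laminins found under most epithelia, hair placodes included. Lama5 (ENSMUSG00000015647) was at 86.0, 16.7 and 28.2 CPM in the knockout libraries, against 664, 281 and 465 CPM in the wild type libraries. Even the highest knockout library was below the lowest wild type library, and the log2 fold change was -3.43 ± 0.58 (edgeR adjusted p = 0.000467), or -4.38 without knockout replicate 1. Lamb2, a laminin beta chain gene, was at 28.4, 20.4 and 30.7 CPM in the knockout libraries, against 209, 153 and 159 CPM in the wild type libraries (log2 fold change -2.71 ± 0.25, edgeR adjusted p = 5.54e-06). Perlecan, the heparan sulphate proteoglycan encoded by Hspg2, also fell. Hspg2 had 116, 91.8 and 208 CPM in the knockout libraries, against 444, 193 and 330 CPM in the wild type libraries, and these overlapped (log2 fold change -1.22 ± 0.37, edgeR adjusted p = 0.0170). Hspg2 was not called without knockout replicate 2 (adjusted p = 0.0577), without wild type replicate 1 (0.0656) or without both libraries numbered 1 (0.131).

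Nidogens link the laminin and collagen networks, and both nidogen genes rose. Nid1 was at 42.0, 50.4 and 90.6 CPM in the knockout libraries, against 10.7, 3.97 and 8.86 CPM in the wild type libraries (log2 fold change 2.95 ± 0.40, edgeR adjusted p = 0.000103). Nid2 was at 29.2, 28.5 and 49.9 CPM in the knockout libraries, against 3.00, 1.77 and 1.01 CPM in the wild type libraries (log2 fold change 4.21 ± 0.41, edgeR adjusted p = 9.12e-06). Their FPKM ratio, Nid2 to Nid1, was 0.933, 0.759 and 0.739 in the knockout libraries, against 0.377, 0.599 and 0.153 in the wild type libraries (two-sided exact permutation p = 0.10, the smallest possible). Nid2 shares 8.45% of its exon bases with Rtraf on the other strand. Lama4, for the laminin alpha chain of vessels and muscle, stood at 23.6, 29.7 and 44.3 CPM in the knockout libraries, against 5.78, 2.57 and 6.47 CPM in the wild type libraries (log2 fold change 2.71 ± 0.37, edgeR adjusted p = 0.000108).

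The common chains Lamb1 and Lamc1 did not pass the test. Lamb1 was at 52.9, 90.6 and 103 CPM in the knockout libraries, against 60.3, 47.3 and 62.0 CPM in the wild type libraries (log2 fold change 0.54 ± 0.26, edgeR adjusted p = 0.107), with knockout replicate 1 inside the wild type range. It was called without that library (log2 fold change 0.79, adjusted p = 0.00753). Lamc1 was at 88.6, 69.7 and 181 CPM in the knockout libraries, against 176, 93.3 and 148 CPM in the wild type libraries (log2 fold change -0.30 ± 0.36, edgeR adjusted p = 0.505). Its 95% interval of the fold, from 0.469 to 1.41, covers both directions, and without knockout replicate 3 it was called lower (log2 fold change -0.81, adjusted p = 0.0496).

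Ratios within a library do not depend on library scaling. The FPKM ratio of Lama4 to Lama5 was 0.259, 1.68 and 1.48 in the knockout libraries, against 0.00822, 0.00861 and 0.0131 in the wild type libraries. The groups differed by 6.47 on the log2 scale and did not overlap (two-sided exact permutation p = 0.10, the smallest possible, 0.12 adjusted over 6 ratios). Lamb2 to Lamb1 was 0.874, 0.367 and 0.487 in the knockout libraries, against 5.65, 5.28 and 4.18 in the wild type libraries, so that the more abundant of these beta chain genes was Lamb1 in every knockout library and Lamb2 in every wild type library (same p).

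Laminins are trimers of an alpha, a beta and a gamma chain, and 10 chain genes were examined, 5 of them members. Of the 10, 2 were higher, 4 lower and 4 not called, which is near the 28.7% and 25.1% over all genes tested. The summed level was 43.8, 30.7 and 51.0 FPKM in the knockout libraries, against 181, 114 and 149.5 FPKM in the wild type libraries. Lama3 and Lamb3, whose chains keratinocytes secrete, fell with Lama5 and Lamb2. Lama3 was at 2.93 ± 1.75 FPKM in the knockout and 18.2 ± 4.90 FPKM in the wild type, and Lamb3 at 4.68 ± 2.09 FPKM in the knockout and 39.1 ± 3.50 FPKM in the wild type (SD, n = 3 each). Lama2, the alpha chain gene of muscle and nerve laminin, rose with Lama4 (log2 fold change 3.78 ± 0.61, edgeR adjusted p = 0.00036), at 0.825 ± 0.509 FPKM in the knockout and 0.0581 ± 0.0417 FPKM in the wild type (SD, n = 3 each). Lama1 and Lamc3 were low and not called. Keratinocyte markers were all lower and fibroblast markers all higher in the same libraries, and their part in the laminin values was not tested.

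**Figure D5:**
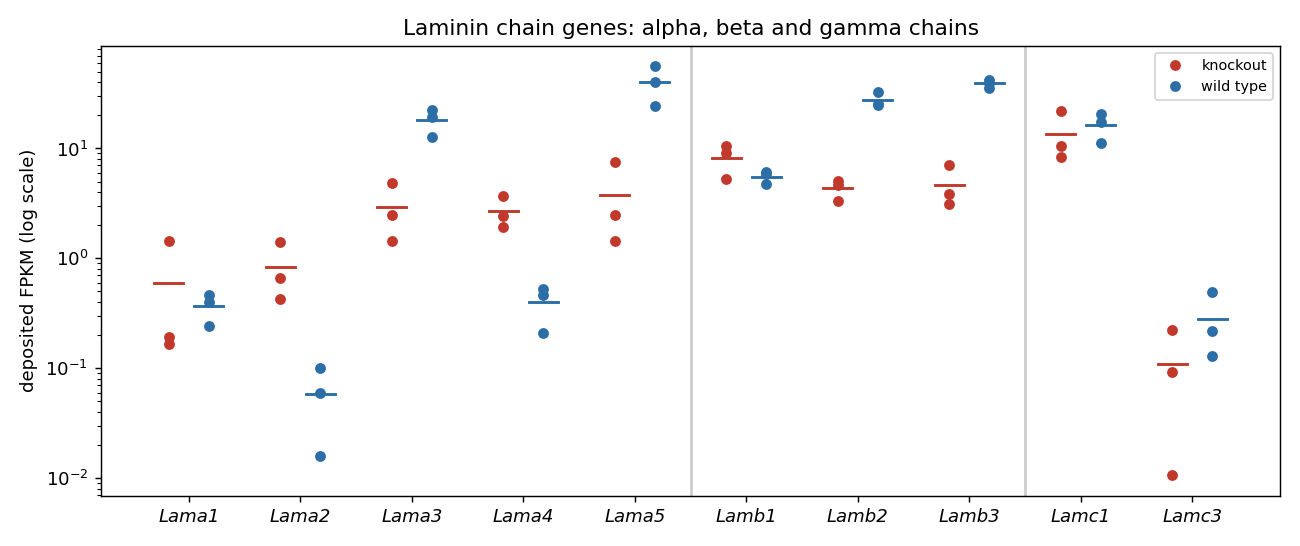
Deposited FPKM of the 10 laminin chain genes on a log axis, ordered as alpha, beta and gamma chains, with knockout points left of wild type points and a line at each mean. Lama3, Lama5, Lamb2 and Lamb3 are lower in every knockout library than in any wild type library, and Lama2 and Lama4 are higher.

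Other non-collagen matrix genes, matrix receptors and hyaluronan enzymes gave a comparison list of 117 genes, of which 96 were tested. Of these 52 were higher (54.2%) and 28 lower (29.2%) at an edgeR adjusted p under 0.05, with a median log2 fold change of 1.38. The matching background values, from the 16471 genes in the test, were 28.7%, 25.1% and -0.029. The share of lower genes thus lay near the background, and the share of higher genes lay above it. Some of the higher genes reached the count filter in the knockout libraries only, such as Tnn (1, 3 and 2 wild type counts), Spp1 (0, 1 and 1) and Thbs4 (0, 0 and 1). Among the lower genes, Cilp2 (6, 7 and 0 knockout counts) reached it in the wild type libraries only. For such genes a difference was a condition of being tested, so these shares are a description. The same background holds for the roles below, whose counts are a description. By role, 20 of 29 further glycoprotein genes were higher and 4 lower, and 8 of 15 further elastic fibre and cross-linking genes were higher and 4 lower. Among 17 further basement membrane genes 5 were higher and 10 lower, with a median of -2.56. Of 8 further proteoglycan genes 4 were higher and 2 lower, of 19 matrix receptor genes 9 were higher and 7 lower, and of 8 genes of hyaluronan metabolism 6 were higher and 1 was lower.

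The 3 largest falls in the comparison list belong to the Fraser complex, which holds the embryonic epidermis to the dermis. Frem2 was at 4.59, 0.261 and 0.805 CPM in the knockout libraries, against 264, 152 and 194 CPM in the wild type libraries (log2 fold change -6.72 ± 0.75, edgeR adjusted p = 2.56e-05). Fras1 was at 11.2, 0.980 and 2.29 CPM in the knockout libraries, against 187, 133 and 175 CPM in the wild type libraries (log2 fold change -5.09 ± 0.70, edgeR adjusted p = 0.000117). Frem1 fell by 4.30 ± 0.38 on the log2 scale (edgeR adjusted p = 4.62e-06). All 3 genes were far lower in every knockout library than in any wild type library, and knockout replicate 1 was the highest knockout library for each.

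The 3 largest rises were those of Spp1, Tnn and Srgn. Tnn, which encodes the tenascin also called tenascin-W, had 533, 879 and 1415 CPM in the knockout libraries, against 0.0546, 0.183 and 0.106 CPM in the wild type libraries, from 6 wild type counts in all (log2 fold change 12.94 ± 0.63, edgeR adjusted p = 1.79e-07). Spp1, for osteopontin, had 2 wild type counts, a ratio of 76120 (95% counting interval 21070 to 628600). Srgn, the proteoglycan of leukocyte granules, rose by 9.90 ± 0.50 on the log2 scale (edgeR adjusted p = 1.96e-07). Macrophages are known to express Spp1 and Srgn. The macrophage markers, the fibroblast markers and the neutrophil markers tested were all higher, and the part of such cells in these rises was not tested. The lysyl oxidases, which cross-link elastin and collagen, were named after their values were seen, and all 5 rose, where 28.7% of all genes tested did. Lox (9, 3 and 1 wild type counts), Loxl1 (4, 4 and 8) and Loxl4 (3, 0 and 6) reached the count filter in the knockout libraries only. Lox (8.62 ± 0.60), Loxl1 (7.48 ± 0.38), Loxl2 (7.21 ± 0.43) and Loxl4 (7.13 ± 0.58) changed most and Loxl3 least (1.84 ± 0.37), on the log2 scale, at edgeR adjusted p values between 1.96e-07 and 0.00148.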

How the data were processed

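RNA-seq was done on newborn epidermis, in 3 Paxbp1 knockout and 3 wild type libraries. HISAT2 2.0.5 was used with featureCounts 1.5.0-p3 on build mm10, per the submitters' processing notes, while strand setting and parameters are not given there. The authors deposited whole-number read counts per gene and FPKM values, and the deposited FPKM are count over gene length times 1 factor per library (0.854 to 1.12 relative to the total count). The gene table and the reference annotation share the build.

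Counts were tested with edgeR 4.0.16 in R 4.3.3 (TMM factors, filter at a minimum count of 10 and total of 15, robust quasi-likelihood test, genotype as the only term), with Benjamini-Hochberg adjustment over all 16471 genes tested. The filter kept at least 99.7% of the counts of each library. Each log2 fold change is given as knockout minus wild type with an SE derived from the F statistic (its size divided by the root of F). Levels are CPM with TMM factors, as mean ± SD or per library, and levels of different genes are compared in FPKM only. Ratios were tested with a two-sided exact permutation test. Alternatives were RLE, library-size and upper-quartile scaling, 2 other filters, DESeq2 1.42.0, limma-voom and limma-trend (limma 3.58.1) on log2 FPKM with a pseudocount of 1 or 0.1, a replicate block, and each library left out. A fit without both libraries numbered 1, which had the most genes with a count, was added after seeing the data.

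Whether replicate numbers in the titles pair the libraries was checked by correlating their deviations from the mean of each group. Same-numbered libraries gave 0.232, 0.339 and 0.176, other pairs gave -0.323 to 0.0734, and the numbers may therefore pair the libraries. The main fit, its counts of members called and the main ratio test left this pairing out. A replicate block was run as an alternative, and its values are printed beside the main ones where they change a call (Thbs3 and Ogn). No library repeated another, since chi-square divided by degrees of freedom was 29.8 to 80.5 within groups. Without a stated strand setting, reads of genes with shared exon bases cannot be told apart. This concerned 16 of the 39 members, 1 of them (Fbn1, 20.1%, with Gm9913 at 2 counts) by over 10% of its exon bases.

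Members and lists were chosen with earlier results of these data known. Per-library values were given, in each class, for the 4 members with the smallest adjusted p among those higher, for members lower or not called, for the highest by FPKM and for members of the ratios. From the comparison list the 3 largest rises and falls with a mean of at least 5 CPM were named. Other genes given per library, and Omd and the lysyl oxidases, were chosen after their values were seen. A comparison gene was left out of the lists and is not reported here. Intervals on counts and floors cover counting error only.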

Additional observations from a re-analysis of the deposited data

How the results depend on the processing

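Of 644 values of single members under the alternatives, 619 kept their direction and their side of the threshold, and 31 of the 38 tested members did so throughout. The exceptions were Thbs3, Ogn, Fbln2, Mfap2, Hspg2, Lamb1 and Lamc1. Lamc1 changed sign without both libraries numbered 1 (log2 fold change 0.0437, adjusted p = 0.942). Members higher ranged from 26 to 30 and members lower from 4 to 6 over all alternatives, against 27 and 5. The only count of genes to move by over 1.5 times was that of elastic fibre genes lower, 2 with library-size and 2 with upper-quartile scaling, against 1. With these scalings the median log2 fold change over all genes was -0.18 and -0.22, against -0.029, and Fbln2 was not called (adjusted p = 0.0932 and 0.0693). With the replicate block Thbs3 and Ogn were called (adjusted p = 0.0343 and 0.0340), and it changed no other member's call. Knockout replicate 1, knockout replicate 3 and wild type replicate 1 were the libraries that moved a called member's fold by over 1.5 times, with wild type replicate 3 for Dpt (8.12). Leaving out both libraries numbered 1 also moved Lum, Nid2 and Prelp by that much, to 9.21, 4.81 and 5.05 on the log2 scale. A pseudocount of 1 FPKM shrank the folds of low genes, to 0.68 for Tnxb and 2.77 for Aspn, by its construction. Ratios from counts per kilobase are the same as FPKM ratios by construction, while the exact test within same-numbered pairs, added after seeing the data, gave p = 0.25 for the 5 ratios without overlap and 1.0 for Thbs2 to Thbs1. Leaving out 1 library kept the direction of all 6 (Lama4 to Lama5 from 5.99 to 7.34, Thbs2 to Thbs1 from -0.28 to -0.0059). Genes near 1 CPM, Ogn, Mfap5 and Fmod among them, are limited by depth.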
